A study of Mus musculus with 4 samples.

Results

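The genes described here are the 6 plasminogen activation and protein C genes Plaur, Plau, Plat, Serpine2, Thbd and Procr, found by symbol among the 32285 genes counted in the series. They were chosen as a family with earlier results from these data known, selected on their unique molecular identifiers (UMIs, each counting 1 captured transcript) per cell class and library. Their levels are therefore given as a description, without a test. None of the 6 was used to cluster the cells.

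Plasmin, the protease that dissolves fibrin clots and also cuts matrix proteins, is made from plasminogen by tissue plasminogen activator (encoded by Plat) and urokinase (encoded by Plau). The urokinase receptor, encoded by Plaur, holds urokinase at the cell surface, and protease nexin-1, encoded by Serpine2, inhibits thrombin and both activators. On brain vessels, thrombomodulin (Thbd) binds thrombin and redirects it towards protein C, an anticoagulant protease precursor that the endothelial protein C receptor (Procr) presents.

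The series holds droplet-based 3' single-cell libraries of cortical cells, and all mice were 10-month-old C57BL/6N males. Sham mice with the isotype control antibody, mice with stroke by distal middle cerebral artery occlusion (dMCAO) and the isotype antibody, mice with dMCAO and anti-VCAM1, and mice with dMCAO and anti-VLA4 made up the 4 groups, each treated for 10 weeks. VCAM1 is an adhesion molecule of activated endothelium, and VLA4 is the leukocyte integrin that binds it. Each group was 1 library from the infarct core and about 2 mm of surrounding cortex pooled from 4 to 5 mice, stained for the endothelial marker CD31 and the leukocyte marker CD45. Which of the stained fractions were taken is not given in the labels, and no cluster was named neuron-like or oligodendrocyte-like.

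After filtering, 1514, 2832, 4657 and 6209 cells remained in sham isotype, stroke isotype, anti-VCAM1 and anti-VLA4, the order used for every set of 4 values below. Median depth was 4515 to 5456.5 UMIs per cell. With 1 library per group there was no replicate check, so a difference is one between libraries, and every interval is a 95% interval of counting error only. Levels are CPM, the UMIs of a gene divided by all UMIs of a class in a library and scaled to counts per 1e6. CPM from 3' ends is not scaled to transcript length, so levels are compared between classes and libraries and not between genes. Sham isotype and stroke isotype shared 59 cell barcodes, 3.83% and 2.04% of their barcodes, where other pairs of libraries shared 1 to 8. Of the 53 kept in both, 43 had the same class in both libraries (81.1%, where the class shares alone would give 33.2%). The shared barcodes had a median of 17753 UMIs each in sham isotype, against 606 in stroke isotype. Summed over these barcodes, the 6 genes had 351 UMIs in sham isotype and 33 in stroke isotype. The values without any barcode found in more than 1 library are given where the stroke ratios are described.

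All 6 genes have positions in GENCODE M21 (GRCm38), and that annotation has no other gene overlapping any of them. Plaur lies at chr7:24462484-24475968 on the plus strand, Plau at chr14:20836660-20843385 on the plus strand and Plat at chr8:22757727-22782844 on the plus strand. Serpine2 lies at chr1:79794197-79861180 on the minus strand, Thbd at chr2:148404466-148408188 on the minus strand and Procr at chr2:155751117-155755471 on the plus strand. RefSeq promoter sequences (GRCm38.p6) were matched for 3 of the 6: Plaur, Procr and Serpine2. The Plaur and Procr sequences are shown because these 2 hold the AP-1 motif TGACTCA, which is bound by products of Fos and Jun, genes of the tissue dissociation response whose summed level is given beside Plaur below. Both run 5' to 3' on the plus strand, Plaur over chr7:24462233-24462482 and Procr over chr2:155750967-155751116. Capitals mark the AP-1 motif and the GC box GGGGCGGGG, searched on both strands.
Plaur: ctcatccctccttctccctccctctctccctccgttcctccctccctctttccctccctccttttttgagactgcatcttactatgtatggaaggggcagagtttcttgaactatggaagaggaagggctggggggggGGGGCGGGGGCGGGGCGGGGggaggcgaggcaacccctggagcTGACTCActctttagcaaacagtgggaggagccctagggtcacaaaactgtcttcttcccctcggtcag
Procr: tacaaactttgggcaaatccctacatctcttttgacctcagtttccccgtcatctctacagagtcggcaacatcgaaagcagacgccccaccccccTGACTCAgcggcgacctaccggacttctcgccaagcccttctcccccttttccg

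The Procr window ran on to 155751216, just before the RefSeq start, and only its first 150 bases are printed because the other 100 are exon in GENCODE M21, whose start for Procr is further upstream. The AP-1 motif began 69 bases before the RefSeq start of Plaur and 154 bases before that of Procr, the second distance counting the bases not printed. Among 32851 RefSeq promoters, 4.46% held it in the 250 bases before the start. The Plaur window also held 3 GC box matches that overlap each other, and 10.4% of promoters held at least 1. In the 250 bases before the RefSeq start of Serpine2 there were 3 GC box matches and no match to TGACTCA. That window, chr1:79858666-79858915, lies inside the GENCODE M21 span of the gene, whose start is further upstream, and 31 of its bases are exon. These are matches of letters and were not measured as binding.

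Each gene had its own distribution over the marker-defined classes, plotted by class and library. Endothelial-like cells held 90.8% of the 14152 Plat UMIs, 90.2% of the 4264 Thbd UMIs and 79.9% of the 661 Procr UMIs. Microglia-like cells held 91.9% of the 10631 Serpine2 UMIs. Plau was split between microglia-like cells, with 72.8% of 1651 UMIs, and border-macrophage-like cells, with 24.1%. Plaur was the most widely spread, with 45.9% of 4690 UMIs in endothelial-like and 30.4% in microglia-like cells. These shares depend on how many cells of each class a library holds, which the CPM values below do not.

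**Figure D1:**
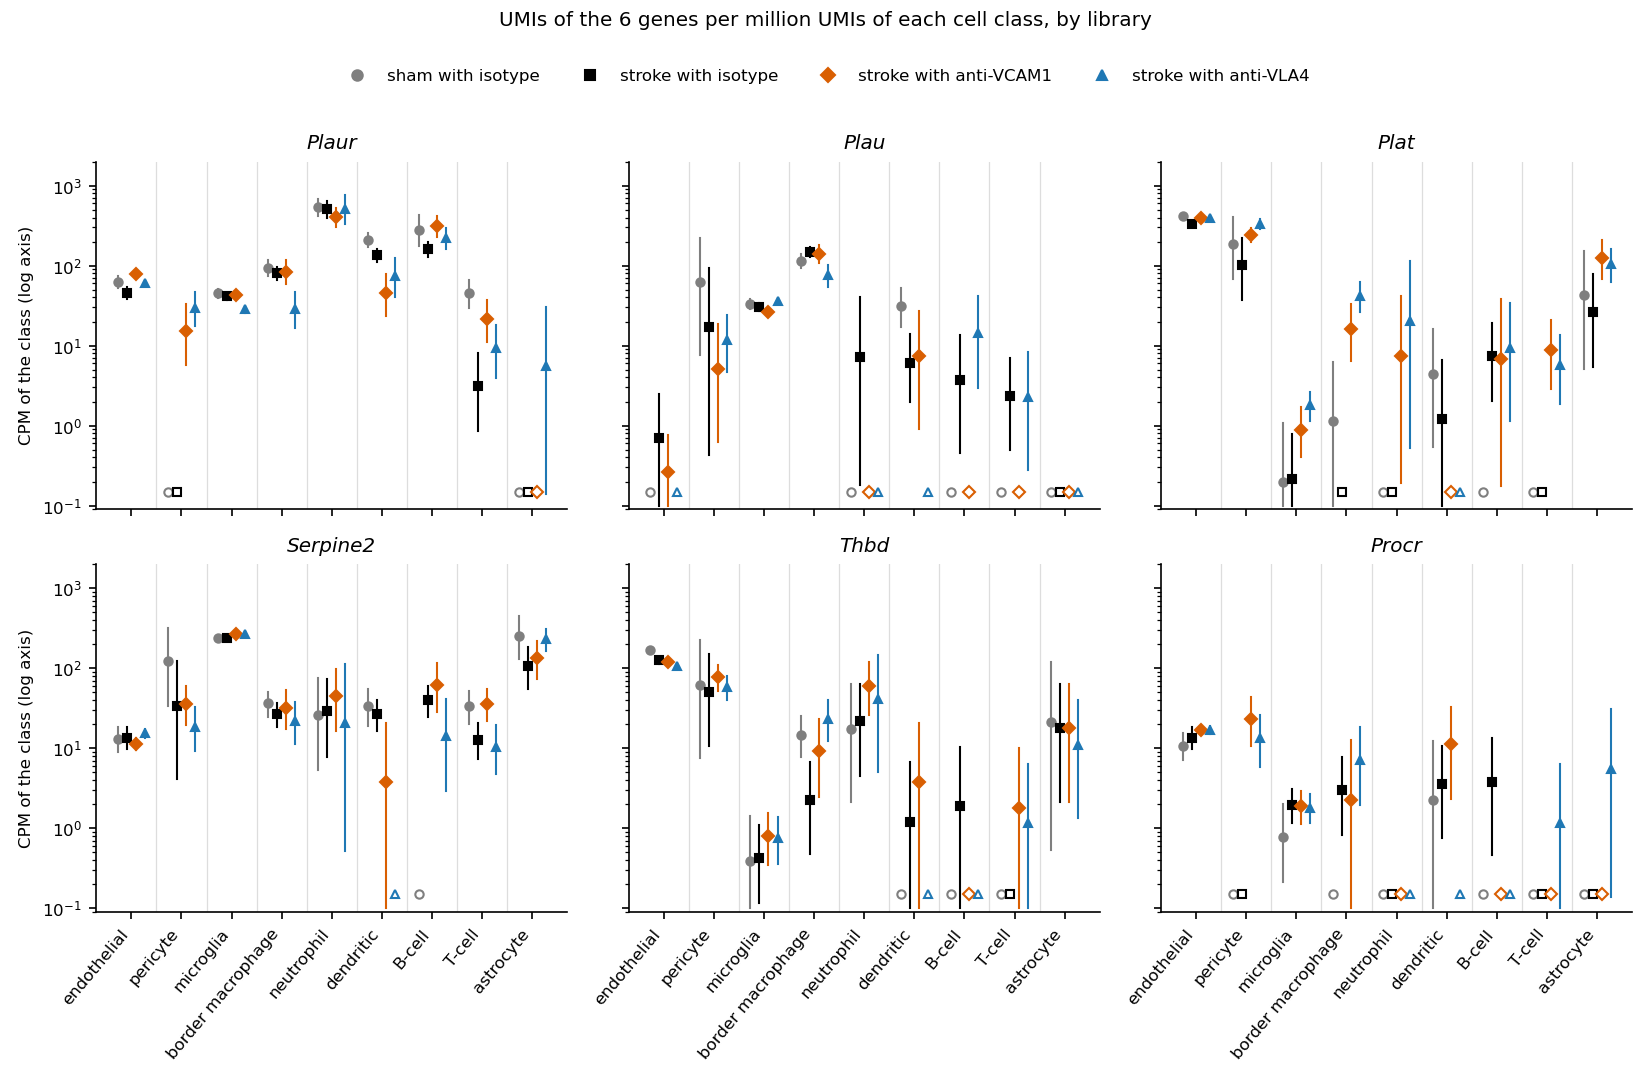
CPM of each gene (log axis) in 9 marker-defined classes, 1 point per library with its exact Poisson interval, and open symbols at the foot for a class in which the gene had no UMI. Plat and Thbd are highest in endothelial-like cells, Serpine2 in microglia-like and astrocyte-like cells, Plau in border-macrophage-like cells and Plaur in neutrophil-like cells.

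Plaur, the receptor, was highest in neutrophil-like cells. It stood there at 538, 505, 404 and 513 CPM, from only 18, 21, 24 and 7 cells, and all 4 values lay above those of every other class. B-cell-like cells followed with 282, 162, 310 and 223 CPM, from 15, 87, 28 and 39 cells. Dendritic-like cells had 212, 136, 45.0 and 73.5 CPM, and border-macrophage-like cells 93.9, 79.8, 84.2 and 28.8 CPM. The ranges of these classes overlapped with their neighbours in the order. Endothelial-like cells came next with 62.6, 45.9, 78.1 and 61.2 CPM, all above the 45.3, 41.2, 42.5 and 28.5 CPM of microglia-like cells, although the lowest endothelial value and the highest microglial value were close. T-cell-like cells ranged from 3.16 to 45.6 CPM on 4 to 26 UMIs a library. The high sham value there (45.6 CPM) came from 26 UMIs in 8 of 73 cells. In that library microglia markers in T-cell-like cells were at a median of 22.1% of their microglial level, against 6.42%, 13.5% and 2.99% in the others, and their part in this value was not tested.

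Plau, the urokinase gene, was highest in border-macrophage-like cells at 114, 147, 141 and 75.6 CPM. Microglia-like cells had 33.4, 30.5, 26.3 and 36.0 CPM. Every border macrophage value was higher than every microglial value. In endothelial-like cells Plau had 0, 2, 3 and 0 UMIs among 547, 647, 2379 and 3051 cells. The 0 of anti-VLA4 allows up to 0.189 CPM, and that of sham isotype up to 1.20 CPM.

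Plat, the tissue plasminogen activator gene, was highest in endothelial-like cells at 421, 335, 394 and 399 CPM. Pericyte-like cells had 187, 102, 244 and 333 CPM, from 10, 13, 55 and 90 cells, and all 4 were lower than the lowest endothelial value. Endothelial markers in the pericyte-like class summed to 1461, 4179, 10304 and 10441 CPM, against 21900, 20803, 21557 and 21249 CPM in endothelial-like cells, and their part in the pericyte value was not tested. Astrocyte-like cells, 5 to 43 a library, ranged from 26.6 to 124 CPM. Microglia-like cells had 1, 2, 9 and 24 Plat UMIs, or 0.0464%, 0.0641%, 0.227% and 0.450% of the endothelial level. Endothelial markers in those cells were at a median of 0.103%, 0.113%, 0.349% and 0.535% of their own endothelial level, so the few Plat UMIs were no higher than those of the markers.

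Serpine2, the inhibitor gene, was highest in microglia-like cells at 238, 241, 265 and 271 CPM. Astrocyte-like cells overlapped that range with 106 to 256 CPM on 81 UMIs in all. The 7 other classes had medians of 13.4 to 35.0 CPM over the libraries, and neighbours among them overlapped. In endothelial-like cells it was at 13.2, 13.6, 11.4 and 15.3 CPM, or 5.54%, 5.63%, 4.31% and 5.65% of the microglial level. Microglia markers in the same cells were at a median of 0.403%, 2.21%, 0.681% and 0.823% of theirs. Within border-macrophage-like cells Serpine2 stood at 7.96% to 15.2% of the microglial level and the marker median at 13.5% to 22.6%.

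Thbd and Procr, the protein C genes, shared the endothelial-like class as their highest. Thbd was at 169, 126, 119 and 107 CPM there, and Procr at 10.8, 13.6, 17.0 and 16.8 CPM. For Thbd no other class reached the lowest endothelial value, and pericyte-like cells came closest with 51.0 to 77.1 CPM. For Procr the pericyte-like values (0 to 23.1 CPM on 17 UMIs) overlapped the endothelial range. Microglia-like cells had Procr at 0.780, 1.93, 1.89 and 1.79 CPM, or 7.25% to 14.2% of the endothelial level, and Thbd at 0.390 to 0.795 CPM, or 0.231% to 0.700%.

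Shares of cells with a UMI were read after thinning every cell to 1000 UMIs. In endothelial-like cells Plat was seen in 31.8% (169 of 531), 26.2%, 28.2% and 30.5% of thinned cells, and Thbd in 15.1%, 10.5%, 10.3% and 9.87%. Unthinned, Plat was seen in 61.6%, 60.4%, 66.2% and 70.7%, and the cells had a median of 3884, 3789, 4044 and 4377 UMIs. In thinned microglia-like cells, which serve as the background for both genes, Plat was seen in 0 of 689, 0 of 1444, 1 of 1789 and 3 of 2421, and the first 0 allows up to 0.435%. Median depths there were 7341.5, 6094, 5308.5 and 5196.5 UMIs, all above those of endothelial-like cells. Serpine2 was seen in 21.2%, 19.4%, 21.9% and 22.0% of thinned microglia-like cells against 1.09% to 1.51% of endothelial-like cells. Plaur was seen in 3.95%, 2.45%, 6.65% and 5.72% of thinned endothelial-like cells and in 3.63%, 4.09%, 3.91% and 2.97% of thinned microglia-like cells. The class with the lowest Plaur share among the large ones was T-cell-like, with 1 of 72, 0 of 242, 4 of 107 and 0 of 196 cells.

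Within the endothelial-like class, cells clustered again fell into 8 subclusters, numbered from 0. Subcluster 4 (595 cells), led by Mgp, Vegfc, Gkn3 and Bmx, had the highest sum of arterial markers, and subcluster 5 (101 cells), led by Il1r1, Vcam1 and Lcn2, the highest sum of venous markers. Subclusters 0 and 1 were the largest and highest in capillary markers. Subcluster 2 was low in the nuclear RNA Malat1, and subcluster 3 combined Stmn2 and Lypd1 with intermediate arterial markers. Subclusters 6 and 7, with 31 and 10 cells, were led by microglial and haemoglobin genes.

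Among subclusters 0 to 5 the vascular members differed along these zones when the libraries were pooled, although the subclusters took different shares of the libraries. Plat stood at 441 CPM (interval 422 to 461) in arterial subcluster 4, at 370 to 402 CPM in subclusters 0 to 3 and at 281 CPM (240 to 327) in venous subcluster 5. Thbd had the reverse extremes, with 204 CPM (170 to 244) in venous subcluster 5 and 106 CPM (96.8 to 116) in arterial subcluster 4, although capillary subcluster 1 was lower still at 94.9 CPM. Procr was highest in the arterial-marked subclusters 4 and 3, at 28.6 and 27.3 CPM, against 9.85 and 10.9 CPM in capillary subclusters 0 and 1. Pooled Plaur among subclusters 0 to 5 ranged from 33.5 CPM in venous subcluster 5, on 20 UMIs, to 86.6 CPM (78.5 to 95.3) in subcluster 3. That order did not hold in every library: subcluster 3 was at 53.9, 131, 101 and 75.1 CPM, below arterial subcluster 4 (80.8 CPM) in sham isotype and below subcluster 2 (109 CPM) with anti-VCAM1. By library the venous Thbd values were 326, 122, 224 and 162 CPM on 11 to 46 UMIs each, and the arterial ones 141, 144, 110 and 91.4 CPM. Stroke isotype was thus an exception to the venous excess of Thbd. For Plat the venous values (194, 210, 302 and 334 CPM) were below the arterial ones (386, 465, 447 and 441 CPM) in all 4 libraries, although in sham isotype capillary subcluster 0 (451 CPM) was above the arterial value. Arterial Procr was at 26.9, 29.3, 26.4 and 30.5 CPM, above subclusters 0 and 1 in each library, while sham isotype had 1 Procr UMI in subcluster 3.

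Microglia-like cells were divided in the same way into 7 subclusters. Subcluster 4 (541 cells), led by Apoe, Cst7 and Cd74 and highest in disease-associated microglia genes, had the highest pooled levels of both the receptor and urokinase among subclusters 0 to 5. Plaur was at 67.4 CPM there (59.9 to 75.7) and Plau at 58.6 CPM (51.5 to 66.3), against 20.8 to 47.3 and 22.8 to 31.9 CPM in the others. By library its Plaur (127, 59.1, 81.9 and 50.5 CPM) was the highest of these subclusters in all 4, and its Plau in 3 of 4, since in stroke isotype Plau was at 35.7 CPM there and at 37.6 CPM in subcluster 3. Subcluster 1 (1500 cells), led by Egr1, Fosb and Atf3, was highest in the dissociation stress list and had Plaur at 47.3 CPM. Subcluster 2, lowest in that list, had Plaur at 20.8 CPM. Serpine2 varied less, from 185 CPM in the shallow, Malat1-rich subcluster 0 to 302 CPM in subcluster 3. Subcluster 6, with 41 cells and led by endothelial genes such as Flt1 and Cldn5, held 18 of the 36 Plat UMIs of the class. Its pooled Plau level was 61.9 CPM (36.1 to 99.1) on 17 UMIs, above that of subcluster 4.

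**Figure D2:**
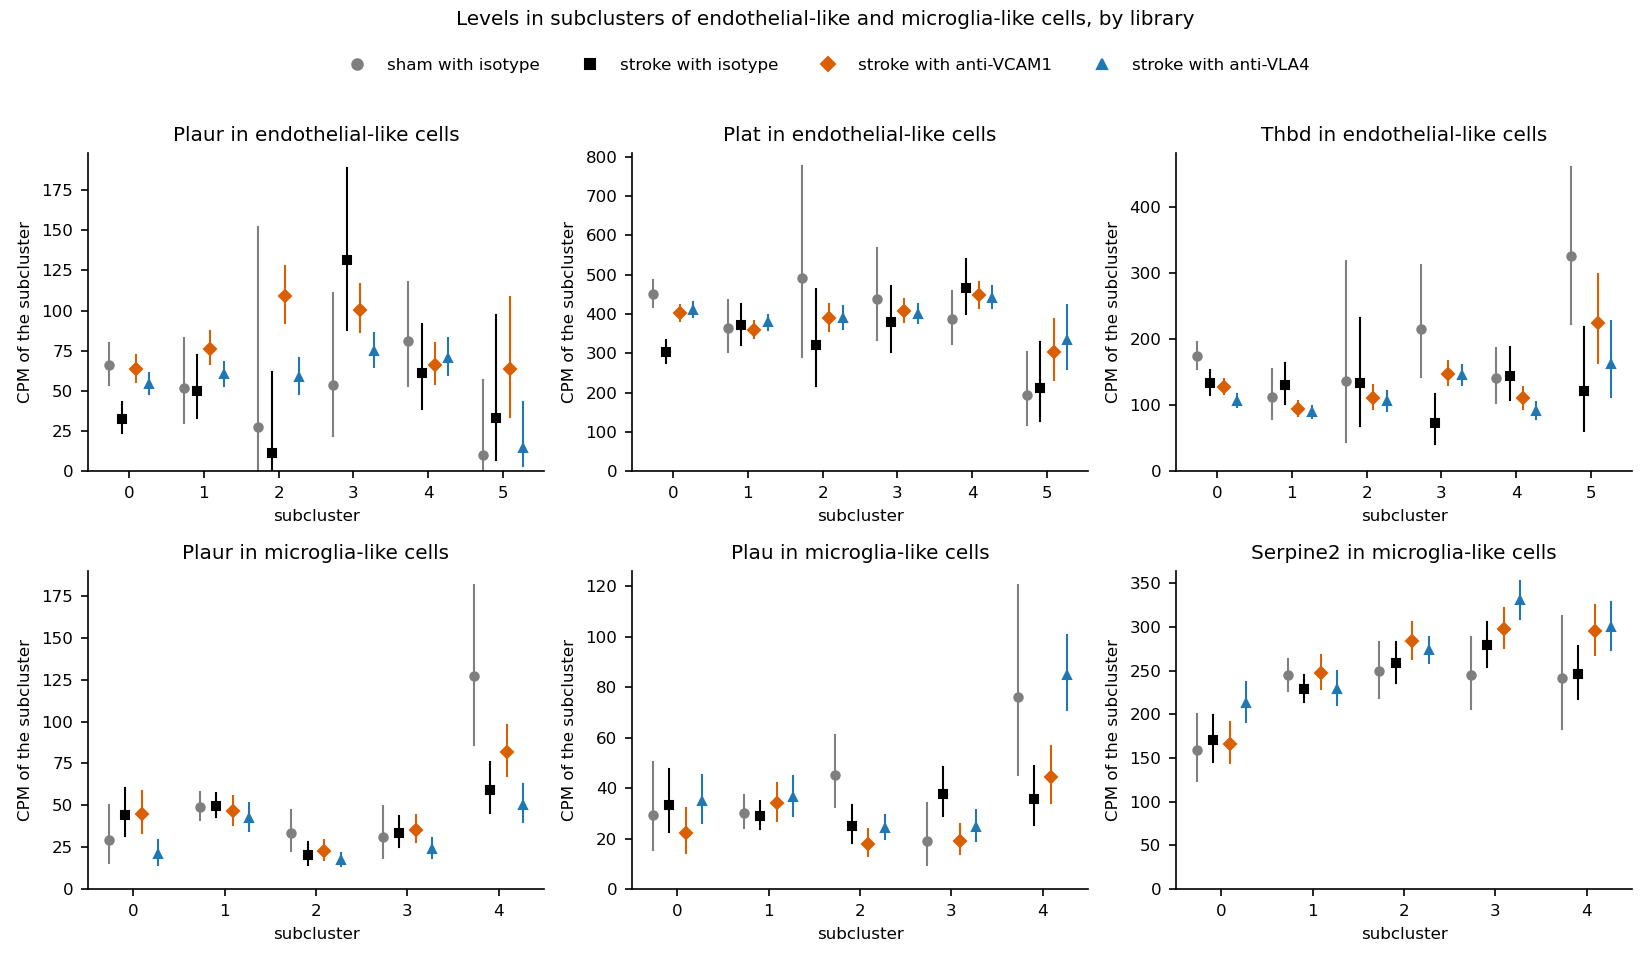
CPM of Plaur, Plat and Thbd in endothelial-like subclusters 0 to 5 and of Plaur, Plau and Serpine2 in microglia-like subclusters 0 to 4, 1 point per library with its exact Poisson interval. Plaur and Plau are high in microglia-like subcluster 4 in some libraries, and sham Thbd is high in venous endothelial subcluster 5.

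The first comparison set stroke isotype over sham isotype, on the log2 scale with a pseudocount of 1 CPM. In endothelial-like cells the activator, thrombomodulin and the receptor were lower in the stroke library. The log2 ratio was -0.33 (-0.46 to -0.20) for Plat, -0.42 (-0.63 to -0.22) for Thbd and -0.44 (-0.79 to -0.10) for Plaur. Procr had 0.31 (-0.41 to 1.10) and Serpine2 0.04 (-0.66 to 0.76), both with intervals across 0. Of the 5 genes with at least 20 UMIs over both libraries, 0 passed 1.5-fold in either direction, where 4.67% of all 10635 such genes were past it upwards and 4.5% downwards. Among the subclusters, only capillary subcluster 0 had intervals below 0 for Plat and for Plaur, with Plat at 304 against 451 CPM and Plaur at 32.3 against 65.8 CPM. For Thbd the intervals of subclusters 0, 3 and 5 lay below 0. In subcluster 1 the Plat ratio was 0.02 and the Plaur ratio -0.04, and in subcluster 3 Plaur went the other way, with 131 against 53.9 CPM on 29 and 7 UMIs. Without barcodes found in more than 1 library the class ratios were -0.32 for Plat, -0.42 for Thbd and -0.43 for Plaur.

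Microglia-like cells taken as a class showed little difference between the same 2 libraries. The log2 ratio was 0.02 (-0.08 to 0.12) for Serpine2, -0.13 (-0.41 to 0.15) for Plau and -0.13 (-0.37 to 0.11) for Plaur. Disease-associated subcluster 4 differed more, with Plaur at 59.1 against 127 CPM (-1.09, -1.75 to -0.43) and Plau at 35.7 against 76.3 CPM (-1.08, -1.94 to -0.20). Its sham isotype part was only 26 cells with 30 Plaur and 18 Plau UMIs, against 125 stroke isotype cells with 63 and 38. In subcluster 2 both genes were also lower, with Plau at -0.82 (-1.48 to -0.21) and Plaur at -0.71 (-1.46 to -0.0056). In subcluster 3 Plau went the other way, at 0.94 (0.04 to 2.06) on 61 and 11 UMIs. The other subcluster intervals of Plaur and Plau held 0. Of 4 genes with enough UMIs only Procr was past 1.5-fold, at 0.72 (-0.29 to 3.33) on 4 and 18 UMIs, where 3.33% of all genes were past it upwards and 2.92% downwards. In border-macrophage-like cells Plau had 0.36 (0.0060 to 0.72) and Plaur -0.23 (-0.66 to 0.20). None of the 3 genes with enough UMIs was past 1.5-fold there, against 8.88% of all genes upwards and 8.54% downwards. The Plau direction turned to -0.42 when each cell was thinned to 1000 UMIs and to -1.01 at clustering resolution 2. The Plaur direction turned to 0.36 when thinned and to 0.30 without the cell with the most Plaur UMIs in each library. In T-cell-like cells Plaur (-3.48, -5.83 to -2.32) and Serpine2 (-1.33, -2.45 to -0.36) were both past 1.5-fold downwards, as were 19.7% of all genes, while 9.6% were past it upwards. Microglia markers summed to 3440 CPM in the sham T-cell-like cells and to 1075 CPM in those of stroke isotype. Without cells holding at least 5 markers of another class, the sham value of Plaur was 34.1 CPM on 14 UMIs and the stroke value 3.43 CPM. Serpine2 then had 3 UMIs in each of the 2 libraries. Its ratio turned to 2.36 when each cell was thinned to 1000 UMIs. Only 1 of 242 thinned cells in stroke isotype and 0 of 72 in sham isotype held a Serpine2 UMI.

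**Figure D3:**
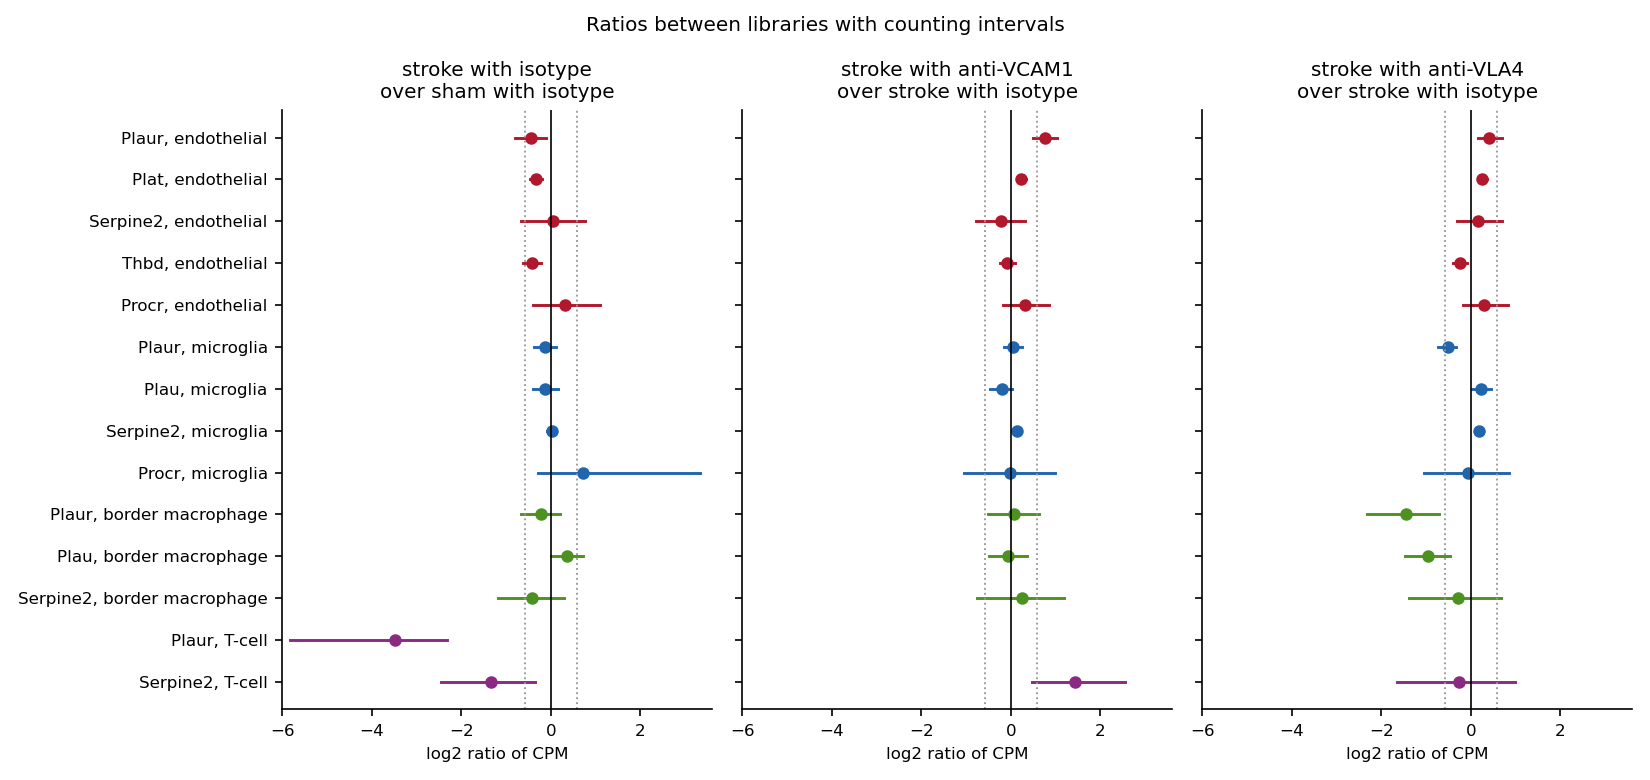
Log2 ratio of CPM between libraries for each gene and class with enough UMIs, with the 95% interval for counting error as a line, and dotted lines at 1.5-fold. In endothelial-like cells Plaur, Plat and Thbd lie below 0 for stroke over sham, and Plaur and Plat above 0 for both antibodies over stroke isotype. The stroke isotype library is part of every comparison.

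The other comparisons set each antibody library over stroke isotype. Both use that one library as control, so a low or high value in it moves both ratios the same way. Their likeness is therefore not independent evidence. Stroke isotype is also the library set over sham isotype. A low value in it lowers that ratio and raises both antibody ratios, so their opposite signs are not independent evidence either. In endothelial-like cells Plaur was the only member past 1.5-fold. Against 45.9 CPM with isotype, its level was 78.1 CPM with anti-VCAM1, a log2 ratio of 0.75 (0.50 to 1.04). Its level with anti-VLA4 was 61.2 CPM, a ratio of 0.41 (0.15 to 0.69). The sham level of 62.6 CPM lay between both antibody values. With anti-VCAM1, 1 of 5 members was past 1.5-fold upwards and 0 downwards, where 2.91% of 11839 genes were past it upwards and 8.27% downwards. With anti-VLA4, 0 of 5 were past it, against 2.97% upwards and 9.18% downwards. The dissociation stress list summed to 5080, 4279, 5094 and 5421 CPM in endothelial-like cells. It was lowest in the library with the lowest Plaur, but highest with anti-VLA4, where Plaur was highest with anti-VCAM1. Its part in the Plaur values was not tested. Without the cluster highest in that list the Plaur ratios were 0.97 with anti-VCAM1 and 0.61 with anti-VLA4.

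The Plaur difference was unequal between endothelial subclusters. In capillary subcluster 0 the log2 ratio was 0.96 (0.51 to 1.47) under anti-VCAM1 antibody, and 0.73 (0.29 to 1.24) under anti-VLA4. In subcluster 1 the ratios were 0.60 and 0.26, and in arterial subcluster 4 they were 0.11 and 0.21 with intervals across 0. Subcluster 3 had the opposite sign, with -0.38 (-0.96 to 0.23) and -0.80 (-1.37 to -0.19). Subclusters 2 and 3 took larger shares of both antibody libraries (19.5% and 15.0% with anti-VCAM1, 19.0% and 16.8% with anti-VLA4) than of stroke isotype (7.42% and 7.26%). Holding subcluster shares equal, a step added after the data had been seen, gave Plaur ratios of 0.69 and 0.29. When each cell was thinned to 1000 UMIs they were 1.32 and 0.96.

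Plat was slightly higher with both antibodies, with log2 ratios of 0.23 (0.13 to 0.33) and 0.25 (0.15 to 0.35), and stood below the sham value of 421 CPM in both. Subcluster 0 (0.40 and 0.43) was the only one with intervals above 0, and subclusters 1 and 4 had ratios from -0.08 to 0.03. Thbd differed from the activator and the receptor. Its ratio was -0.08 (-0.25 to 0.09) under anti-VCAM1, while under anti-VLA4 it was -0.24 (-0.41 to -0.08), so that the anti-VLA4 library had the lowest Thbd level of the 4 at 107 CPM. In endothelial-like cells ratios varied with gene span (Spearman's rho across genes of -0.46 with anti-VCAM1 and -0.44 with anti-VLA4, where genes are not independent replicates), and Thbd is a short gene of 3723 bases. With that trend removed its ratios were -0.28 and -0.42. With anti-VLA4 Thbd was lower in 4 of 6 subclusters, and subcluster 3 had the opposite sign at 1.00 (0.29 to 1.83). Procr had 0.31 and 0.29, with intervals across 0 on 39 UMIs in the control library.

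**Figure D4:**
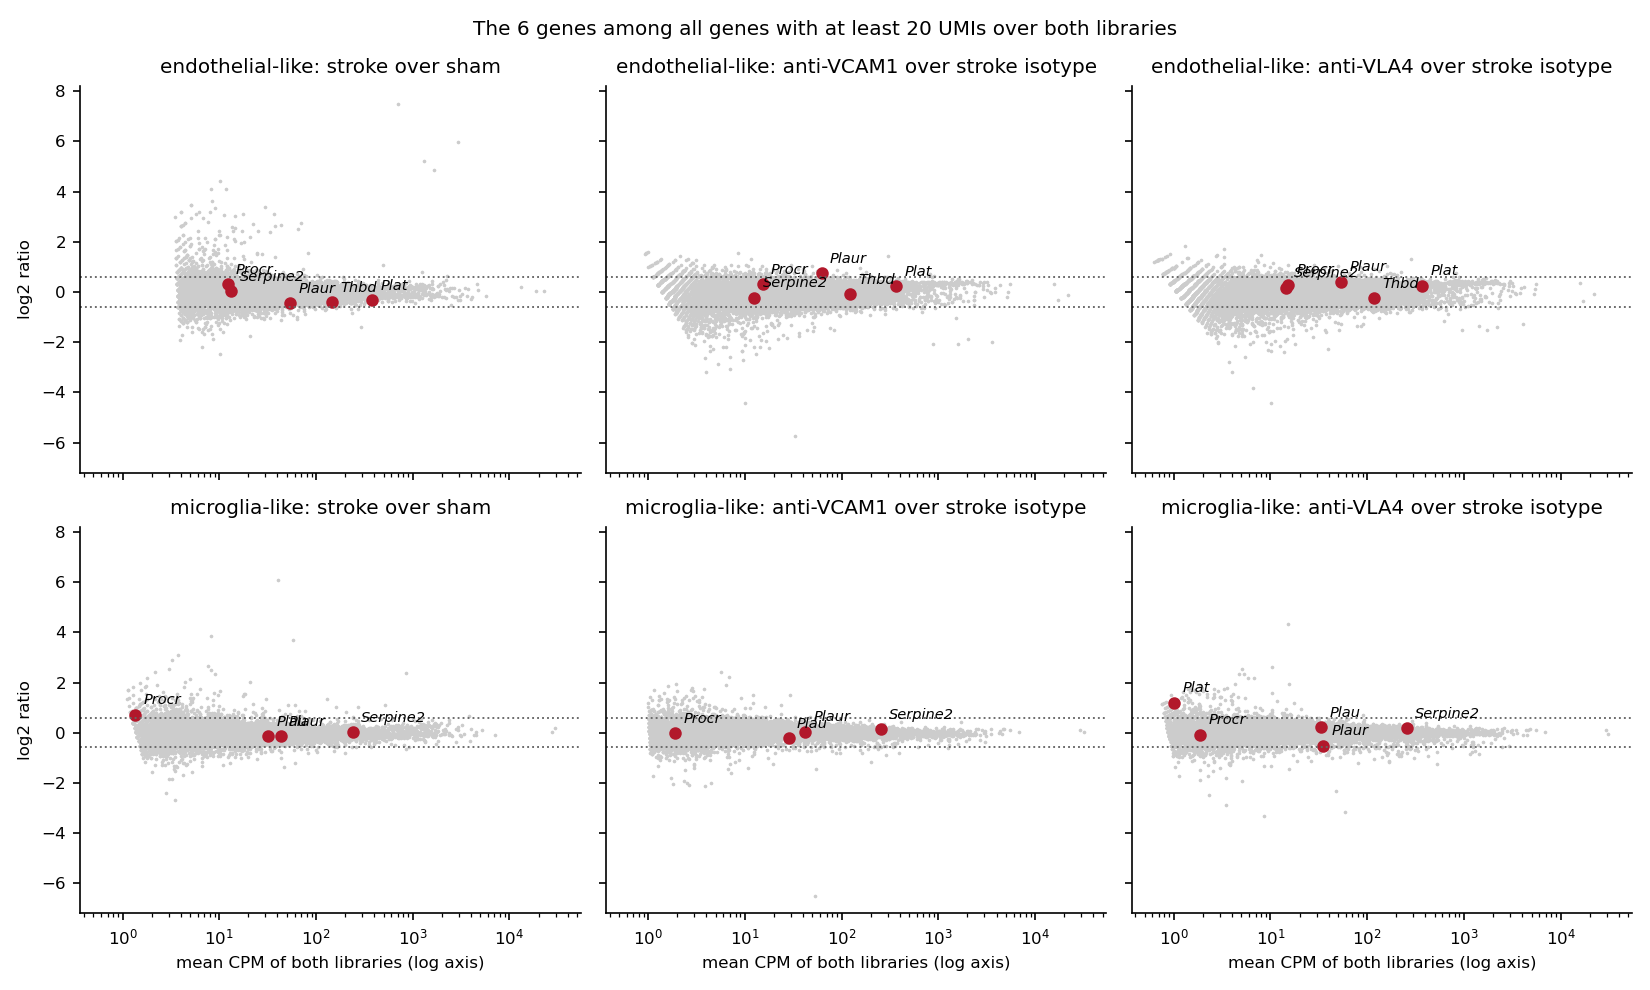
Log2 ratio against the mean CPM of both libraries (log axis) for every gene with at least 20 UMIs, in endothelial-like cells (top) and microglia-like cells (bottom), with the 6 genes in red where they had enough UMIs and dotted lines at 1.5-fold. Plaur with anti-VCAM1 lies above the upper line in endothelial-like cells, and in microglia-like cells Plaur with anti-VLA4 lies just inside the lower line, while Plat lies above the upper line from 24 against 2 UMIs.

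In microglia-like cells the receptor was at 45.3, 41.2, 42.5 and 28.5 CPM, with the anti-VLA4 library apart from the other 3. The log2 ratio was -0.52 (-0.74 to -0.32) with anti-VLA4 and 0.04 (-0.16 to 0.25) with anti-VCAM1. It was below 0 in all 5 subclusters with enough UMIs, from -1.03 in subcluster 0 to -0.22, although only the interval of subcluster 0 excluded 0. The dissociation stress list summed to 18081, 15238, 12130 and 10662 CPM in microglia-like cells and the inflammatory list to 4228, 4585, 3913 and 2619 CPM, both lowest with anti-VLA4, and their part in the Plaur value was not tested. Without the cluster highest in stress genes the anti-VLA4 ratio was -0.62, and with subcluster shares held equal it was -0.44. Serpine2 was slightly higher with both antibodies, at 0.14 (0.06 to 0.22) and 0.17 (0.10 to 0.25). Plau had -0.20 (-0.46 to 0.03) under anti-VCAM1, while under anti-VLA4 it had 0.23 (0.03 to 0.46). In disease-associated subcluster 4 the Plau level was 76.3, 35.7, 44.4 and 84.8 CPM, from 26, 125, 181 and 209 cells. The anti-VLA4 ratio of Plau there was 1.23 (0.72 to 1.81), while in subcluster 3 it was -0.59. Classing cells singly by their own markers turned the Plau ratio of the class with anti-VLA4 to -0.17.

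With anti-VCAM1, 0 of 4 members were past 1.5-fold in microglia-like cells, where 2.05% of all genes were past it upwards and 1.81% downwards. With anti-VLA4, 1 of 5 was past it upwards and 0 downwards, against 2.35% and 2.67% of all genes. That gene was Plat, on 24 against 2 UMIs, which is the level set beside the endothelial markers above.

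In border-macrophage-like cells urokinase and its receptor were both lower with anti-VLA4, on few cells. Plau was at 75.6 CPM with anti-VLA4 against 147 CPM with isotype, a log2 ratio of -0.95 (-1.47 to -0.47). Plaur was at 28.8 against 79.8 CPM, a ratio of -1.44 (-2.33 to -0.70). The anti-VLA4 values were the lowest of the 4 libraries for both genes. The UMIs were concentrated: with anti-VLA4 the 42 Plau UMIs came from 13 of 94 cells and the 16 Plaur UMIs from 10, and with isotype 193 Plau UMIs came from 51 of 201 cells, 71.0% of them from 10 cells. The intervals treat UMIs as independent and are too narrow for such counts. With anti-VCAM1 the ratios were -0.06 for Plau and 0.08 for Plaur. At clustering resolution 2 the anti-VLA4 ratio of Plau was 0.71 and that of Plaur -4.29.

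Endothelial RNA was also present in this class. Endothelial markers summed to 61.1, 41.8, 346 and 2206 CPM in border-macrophage-like cells, all 10 of them with UMIs in both antibody libraries. Plat in these cells had 1, 0, 7 and 23 UMIs and Thbd 13, 3, 4 and 13. With anti-VLA4 the Plat level was 10.4% of the endothelial level and the median marker 10.8%. Leaving out cells with at least 5 markers of another class, chosen after the data had been seen, removed 10 of the 94 anti-VLA4 cells and all 23 Plat UMIs, and left 2 of 13 Thbd UMIs and all 42 Plau UMIs. The Plau ratio was then -0.65 and the Plaur ratio -1.55. Of 4 members with enough UMIs with anti-VLA4, Plat was past 1.5-fold upwards and Plaur and Plau downwards, where 11.4% of all genes were past it upwards and 13.9% downwards. With anti-VCAM1 0 of 3 were past it, against 10.2% and 12.7%. In T-cell-like cells only Serpine2 had enough UMIs for both antibodies, at 1.43 (0.47 to 2.54) in the anti-VCAM1 comparison and -0.26 (-1.65 to 0.98) in the other. Of all genes there, 10% were past 1.5-fold upwards and 11.9% downwards with anti-VCAM1, and 7.58% and 13.7% with anti-VLA4. The first ratio turned to -0.21 under a stricter cell filter. It turned to -1.84 without cells holding at least 5 markers of another class, which left 0 anti-VCAM1 and 3 stroke isotype UMIs.

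A list of 43 other genes of plasminogen, coagulation and protein C biology was read beside the 6, and is drawn as a heat map by class and library. In endothelial-like cells 13, 18 and 17 of them had enough UMIs in the stroke, anti-VCAM1 and anti-VLA4 comparisons. With stroke 2 were past 1.5-fold upwards and 1 downwards, where 4.67% and 4.5% of all genes were, and the list's median log2 ratio was 0.05 against -0.04 for all genes. With anti-VCAM1 the counts were 1 and 3, where 2.91% and 8.27% of all genes were past it, and the median was 0.11 against -0.06. With anti-VLA4 they were 1 and 4, beside 2.97% and 9.18% of all genes, and the median was 0.004 against -0.08. Only Itgav, which encodes the alpha V integrin subunit of the vitronectin receptor, also had 100 UMIs over both libraries. It was at 39.9, 44.5, 25.1 and 25.6 CPM, with log2 ratios of -0.80 (-1.13 to -0.52) and -0.78 (-1.09 to -0.50) for the antibodies. The genes on fewer UMIs, named after their values were seen, were Itgam and Lrp1 upwards and Igf2r downwards with stroke. With anti-VCAM1 they were F5 upwards and F8 and Itgam downwards, with Lrp1 also downwards with anti-VLA4. Itgam, an integrin subunit of myeloid cells, was at 0.399, 11.1, 1.66 and 3.03 CPM in endothelial-like cells against 449 to 506 CPM in microglia-like cells. Anxa2 and S100a10, which form a surface receptor for plasminogen and tissue plasminogen activator, were at 218, 226, 260 and 276 CPM and at 47.9, 50.5, 69.0 and 62.4 CPM in endothelial-like cells.

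In microglia-like cells 20, 21 and 23 list genes had enough UMIs. With stroke 3 were past 1.5-fold upwards (Anxa2, F3 and Mmp12) and 1 downwards (Serpinf2), with a median of 0.03 against -0.04 for all genes. With anti-VCAM1 Anxa2 alone was past it upwards, with a median of 0.05 against 0.03. With anti-VLA4 2 were past it upwards (Anxa2 and Vtn) and 3 downwards (F8, Mmp12 and Serpini1), with a median of -0.05 against 0.06. Of all genes 3.33% and 2.92% were past it upwards and downwards with stroke, 2.05% and 1.81% with anti-VCAM1, and 2.35% and 2.67% with anti-VLA4. All of the named list genes had fewer than 100 UMIs over both libraries and were named after their values were seen. Mmp12, a macrophage elastase, was at 0.195, 5.90, 6.46 and 0.971 CPM.

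Border-macrophage-like cells had 14, 13 and 13 list genes with enough UMIs. With stroke 2 were past 1.5-fold upwards, Itgav at 0.62 (0.26 to 0.99) and S100a10 at 0.60 (0.08 to 1.17), and 1 downwards, Itgb2 at -0.69 (-1.07 to -0.32). With anti-VCAM1 3 were past it upwards, Anxa2 at 1.31 (0.84 to 1.81), S100a10 at 0.91 (0.44 to 1.39) and Pros1 at 0.60 (0.11 to 1.09), and Mmp12 downwards on few UMIs. With anti-VLA4 0 were past it upwards and 3 downwards, S100a10 at -1.18 (-2.01 to -0.47), Itgam at -0.86 (-1.30 to -0.45) and Lrp1 at -0.64 (-1.13 to -0.19). Lrp1 encodes an endocytic receptor that clears activator and inhibitor complexes. F13a1, the clot-stabilising factor XIII A subunit, was at 1130, 1077, 956 and 953 CPM in this class. The list medians were 0.05, -0.02 and -0.20 against 0.01, -0.003 and -0.03 for all genes. Of all genes in this class 8.88% and 8.54% were past 1.5-fold upwards and downwards with stroke, 10.2% and 12.7% with anti-VCAM1, and 11.4% and 13.9% with anti-VLA4. In T-cell-like cells 13, 13 and 13 list genes had enough UMIs. With stroke 1 was past 1.5-fold upwards, Igf2r at 1.37 (0.67 to 2.21), and 6 downwards, of which Itgav had 100 UMIs, at -0.61 (-0.99 to -0.23), beside 9.6% and 19.7% of all genes. With anti-VCAM1 1 was past it upwards and 0 downwards, beside 10% and 11.9% of all genes, and with anti-VLA4 0 upwards and 4 downwards, beside 7.58% and 13.7%. The list medians there were -0.41, 0.03 and -0.32, against -0.10, -0.02 and -0.04 for all genes. Microglia markers in the T-cell-like class summed to 3440, 1075, 2083 and 486 CPM, and their part in these counts was not tested.

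**Figure D5:**
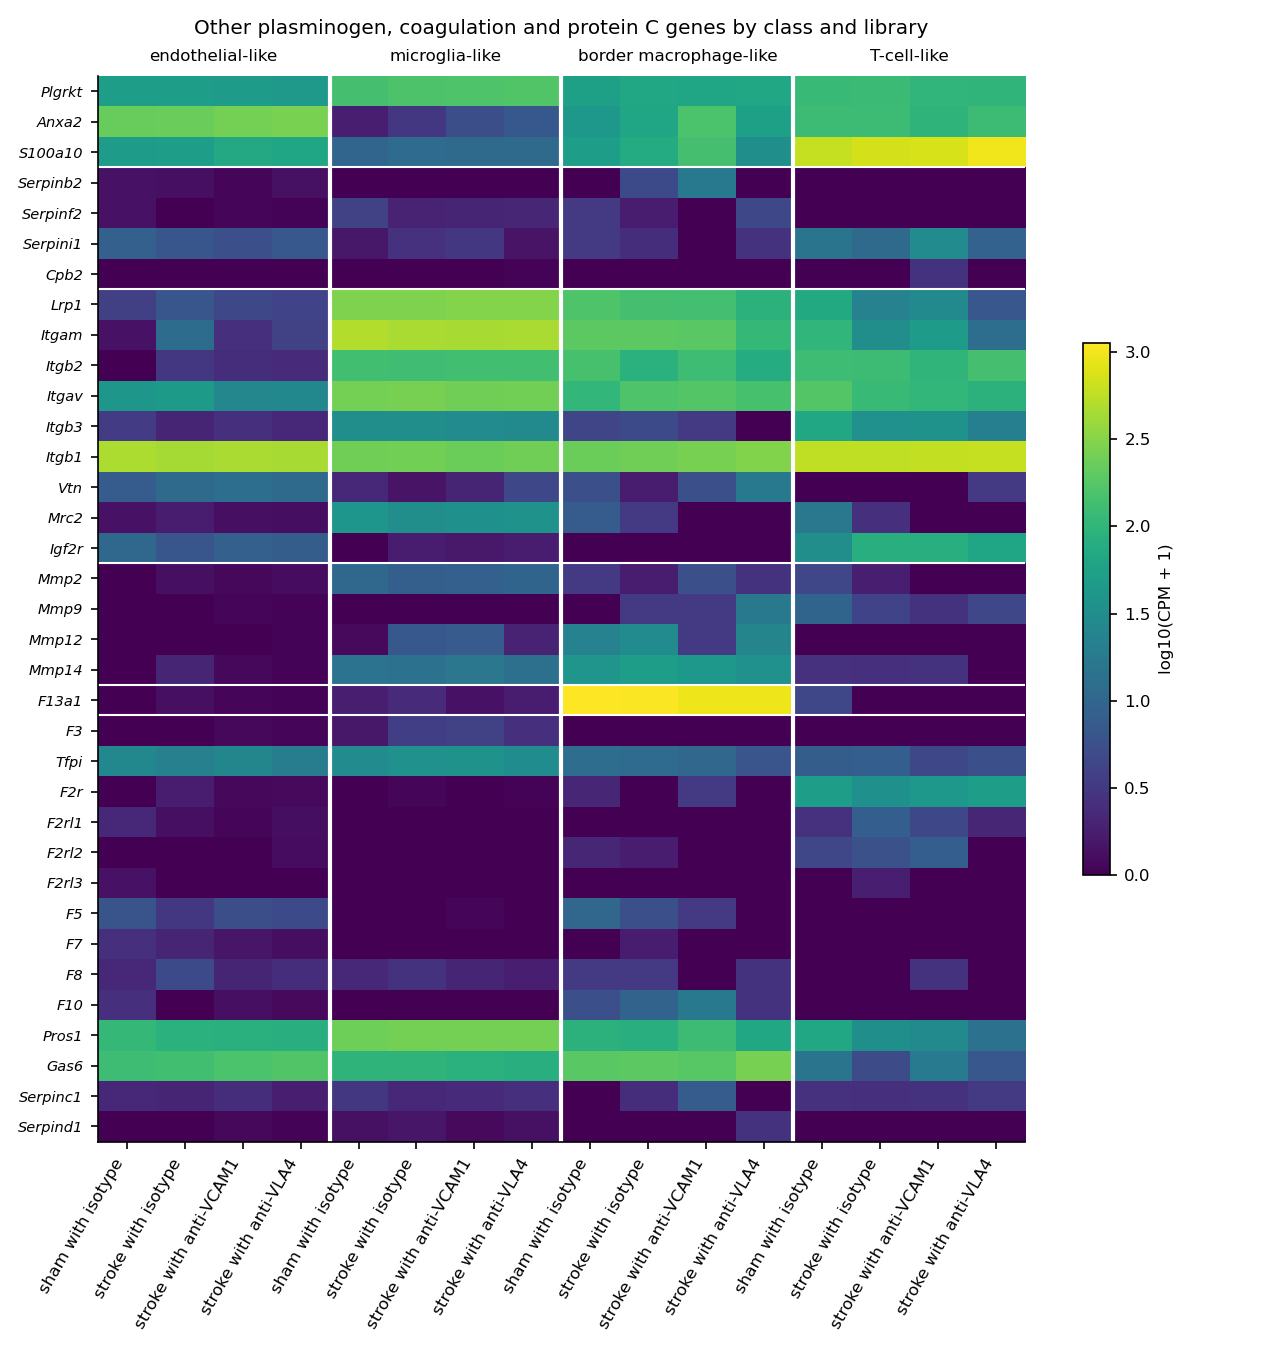
Heat map of log10(CPM + 1) for the list genes with at least 1 UMI in endothelial-like, microglia-like, border-macrophage-like and T-cell-like cells, with 1 column per class and library and white lines between gene groups (plasminogen receptors, inhibitors, clearance and receptor partners, matrix proteases, fibrin, and coagulation with protein C). F13a1 is highest in border-macrophage-like cells, Lrp1 in microglia-like cells, and Anxa2 in endothelial-like cells.

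The genes with the most similar pattern were taken as the 3 with the highest Pearson correlation of log2(CPM + 1) over 16 profiles, the 4 large classes in the 4 libraries, among 12048 genes. Profiles of 1 library share its depth and those of 1 class its cell type, so the values are a description. Plat was nearest to Prom1 (0.99), Hmcn1 (0.99) and Car4 (0.99), Thbd to Mpzl1 (0.99), Tmeff1 (0.98) and Osbpl10 (0.98), and Procr to Tpi1 (0.97), Ocln (0.96) and Emp2 (0.95). Serpine2 was nearest to Gm37306 (0.98), Phf14 (0.97) and Commd8 (0.97). Plau was nearest to Rnase6 (0.98), 4930430E12Rik (0.98) and Fcgr4 (0.97). Plaur had the loosest match, with Trim3 (0.91), Armcx3 (0.90) and Hexim1 (0.88).

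In thinned endothelial-like cells, cells with a Plat UMI held a Thbd UMI about as often as cells without one. The shares were 17.2% against 14.1%, 11.3% against 10.2%, 8.95% against 10.8% and 10.1% against 9.78%, with overlapping intervals in all 4 libraries. Plaur was seen in 6.51%, 1.88%, 7.41% and 6.74% of cells with a Plat UMI, against 2.76%, 2.66%, 6.35% and 5.28% of those without, again with overlapping intervals. In thinned microglia-like cells with a Plau UMI, 1 of 19, 3 of 37, 5 of 48 and 2 of 72 also had a Plaur UMI. These were 5.26%, 8.11%, 10.4% and 2.78%, against 3.58%, 3.98%, 3.73% and 2.98% of cells without a Plau UMI, with overlapping intervals.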

How the data were processed

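The deposited matrices hold raw UMI counts per gene and cell barcode, and per the file headers Cell Ranger 7.0.1 produced them, while the submitters' processing notes name Cell Ranger 6.0.0, Seurat 4.3.0.1 and the builds mm10 and GRCh38 without their roles. The authors' counts were used as deposited, and the 4 libraries held 10008987, 17130182, 25099141 and 34721356 UMIs in 1541, 2891, 4751 and 6361 barcodes, in the order of the report. Barcodes with at least 500 UMIs, 200 genes and at most 10% mitochondrial UMIs were kept, and Scrublet (expected rate 0.05) marked 11, 24, 63 and 124 doublets, which were left out.

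Cells of all libraries were clustered in scanpy 1.11.5 (2000 variable genes, 30 components, 15 neighbours, Leiden resolution 1, and 0.6 within a class) with leidenalg 0.10.2. The 6 genes, the pathway, stress and inflammatory lists and mitochondrial, ribosomal and haemoglobin genes were left out. A cluster took the name of the class with the highest mean marker detection if at least 3 markers were found in at least 25% of its cells at a log2 fold of 1 or more, and none if a second class had 4. That naming rule was settled after the clusters had been seen. Unnamed cells were 0.462%, 1.24%, 2.66% and 3.32% of the libraries, mainly 337 cells with both endothelial and pericyte markers. The members and all lists were chosen with earlier results of these data known.

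For each class, the UMIs of a library were added up and expressed as CPM, with exact Poisson intervals for levels, Clopper-Pearson intervals for shares and conditional binomial intervals for ratios (computed without the pseudocount of 1 CPM), all at 95%. PCR and free RNA are outside these intervals. The largest share a count of 0 allows was taken as 3 counts. No test was run, since each group has 1 library. Ratios were computed in the 4 classes that had 50 or more cells in every library, for genes with at least 20 UMIs over both libraries, and printed where each library had at least 4. Ratios under the alternatives could rest on fewer cells and UMIs, as for Serpine2 in T-cell-like cells. Genes past 1.5-fold were counted. List genes were named if past 1.5-fold with at least 100 UMIs (at most 4 per class and comparison), or else as chosen after their values were seen. A further gene of that list is not reported here. The ratio script was tested on simulated data with 200 changed genes. Gene positions are from GENCODE M21 (GRCm38) and promoters from RefSeq. Alternatives changed the cell filter, doublets, resolution, naming, depth, scaling, clusters, pseudocount and gene span trend, and 3 were chosen after seeing the data: leaving out shared barcodes, holding subcluster shares equal, and leaving out cells with at least 5 markers of another class. Python 3.11.15, numpy 2.4.6, scipy 1.17.1 and pandas 2.3.3 were used.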

Additional observations from a re-analysis of the deposited data

Results flagged for a closer look

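With anti-VLA4 over stroke isotype, Plaur had opposite signs in different classes: a log2 ratio of 0.41 in endothelial-like cells, -0.52 in microglia-like cells and -1.44 in border-macrophage-like cells. In the same comparison Plau was 0.23 in microglia-like cells and -0.95 in border-macrophage-like cells. Both were picked out because each group is 1 library and the libraries moved in opposite directions in the 2 classes; the differences between classes were not tested. Both signs of Plau turned under an alternative given in the next part.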

How the results depend on the processing

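No paired analysis was possible because each group has 1 library. Of 381 values of the 27 main ratios under 16 alternatives, 354 stayed within the counting interval of the reported ratio, 23 lay outside it, and 4 reversed, meaning that a ratio whose interval excluded 0 changed sign. Of 168 values of 13 further ratios, 158 were within it, 7 outside and 3 reversed, all 3 for Serpine2 in T-cell-like cells. Ratios whose interval held 0 can change sign below without counting as reversed. Thinning each cell to 1000 UMIs gave the following ratios. In endothelial-like cells they were -0.46 for Plat with stroke, 1.32 for Plaur and 0.13 for Plat with anti-VCAM1, and 0.96 for Plaur with anti-VLA4. In microglia-like cells they were 0.25 for Plaur, -0.57 for Plau and -0.089 for Serpine2 with stroke, and 0.13 for Plau with anti-VCAM1. In border-macrophage-like cells Plau reversed to -0.42 with stroke and Plaur was 0.36, and with anti-VCAM1 Plaur was 0.72 and Plau 0.68. Serpine2 with stroke in T-cell-like cells reversed to 2.36, with a UMI in 1 stroke isotype cell and 0 sham isotype cells. Naming each cell on its own markers reversed Plau in microglia-like cells with anti-VLA4 to -0.17, and gave 0.21 for Plau with stroke, -0.49 for Plau and 0.22 for Serpine2 with anti-VCAM1, and -0.80 for Plaur and 0.27 for Serpine2 with anti-VLA4. Resolution 2 left 38, 68, 25 and 44 border-macrophage-like cells, reversed Plau to -1.01 with stroke and 0.71 with anti-VLA4, and gave Plaur 1.80 with stroke and -4.29 with anti-VLA4 and Plau 1.13 with anti-VCAM1. Plaur with stroke in that class was 0.23 under the stricter cell filter and 0.30 without the cell with most UMIs. Removing the gene span trend gave Thbd -0.28 with anti-VCAM1 and -0.42 with anti-VLA4. Serpine2 in T-cell-like cells with anti-VCAM1 reversed to -0.21 under the stricter filter. Without cells holding at least 5 markers of another class it reversed to -1.84, on 0 anti-VCAM1 and 3 stroke isotype UMIs. The cause was not tested for any of these.

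Genes past 1.5-fold in endothelial-like cells numbered 976, 1323 and 1478 in the 3 comparisons, 2900, 2308 and 2369 with no filter beyond 1 UMI, and 215, 605 and 766 with at least 100 UMIs. In microglia-like cells they numbered 762, 489 and 649, then 1395, 805 and 897, and 218, 117 and 242.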

Other observations

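In thinned microglia-like cells, Plau was seen in 2.05%, 1.07%, 1.79% and 2.44% of cells with a Serpine2 UMI and in 2.95%, 2.92%, 2.93% and 3.12% of cells without one, with overlapping intervals in all 4 libraries. Among endothelial-like subclusters 0 to 5, Serpine2 was lowest in arterial-marked subcluster 4, at 4.81 CPM (3.01 to 7.28), against 15.6 and 18.3 CPM in capillary subclusters 0 and 1. In the 31 endothelial-like cells of subcluster 6, led by microglial genes such as C1qa, it was at 70.6 CPM.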
